A study of Mus musculus with 28 samples.

Results

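Replication-dependent histone genes were followed in O9-1 cells, a mouse cell line of cranial neural crest origin, across proliferation and 3 differentiation media at 2 oxygen levels. A gene was taken as a member when its deposited symbol begins with Hist1h, Hist2h, Hist3h or Hist4h and does not carry the pseudogene ending -ps. Of the 54429 genes in the count table, 61 met this rule: by symbol 5 belong to linker histone H1, 15 to H2A, 17 to H2B, 11 to H3 and 13 to H4. Of these, 2 H2A members, Hist1h2al and Hist1h2aj, are annotated as pseudogenes. By symbol, 51 belong to the Hist1 cluster on chromosome 13, 7 to Hist2 on chromosome 3, 2 to Hist3 on chromosome 11 and 1 to Hist4 on chromosome 6. The rule used names only, and no measured value entered it.

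Histones H2A, H2B, H3 and H4 form the nucleosome core, and H1 binds the linker DNA between cores. Cells make most of these proteins in S phase from clustered genes without introns, whose transcripts end in a stem-loop instead of a poly-A tail. The stem-loop binding protein Slbp holds that end, the U7 ribonucleoprotein with Lsm10 and Lsm11 directs the cut, and Npat switches transcription on. Some of these genes also carry a poly-A signal downstream of the stem-loop, and polyadenylated histone transcripts are known from differentiated cells. Replacement histones such as H3f3a, H3f3b, H2afz and H1f0 are made throughout the cell cycle from ordinary polyadenylated transcripts.

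The series asks how low oxygen bears on the differentiation of cranial neural crest cells, the embryonic source of the palate skeleton. Norm_Prolif and Hypo_Prolif cells were kept proliferating at 21% and 0.5% O2 in medium conditioned by STO feeder cells, with 15% fetal calf serum, 25 ng/ml bFGF and 5 ng/ml LIF. Norm_Chondr and Hypo_Chondr cultures were first kept for 3 days in the osteogenic medium and then grown for 7 days as matrigel micromasses with 5% serum, ITS, 0.1 µM dexamethasone, 10 ng/ml TGF-beta3 and 50 ng/ml BMP-2. Norm_Osteo and Hypo_Osteo cultures spent 10 days in alpha-MEM with 10% serum, 10 mM beta-glycerophosphate, 0.1 µM dexamethasone and 100 ng/ml BMP-2. Norm_SM and Hypo_SM cultures spent 3 days in DMEM with 10% serum, the smooth muscle condition. Each group at 21% O2 had 4 libraries and each at 0.5% O2 had 3, all from 1 cell line and labelled as poly-A RNA. The labels do not say that replicates were separate cultures, so p-values measure the spread between these libraries only.

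The 28 libraries held 19.87 to 64.69 M counts (1 M is 1000000 counts), and 38 to 58 members had at least 1 count in a library. Hypo_SM stood apart. Its scaling factors by the trimmed mean of M values (TMM) lay between 0.505 and 0.533, against 0.901 to 1.29 elsewhere, and mitochondrial ribosomal RNA took 11.6% to 13.3% of its counts, against 0.0252% to 0.0889% elsewhere. The smooth muscle markers went against its label: the 5 markers summed to 94.75 to 118.9 counts per 1000000 scaled counts (CPM) in Hypo_SM, 94.02 to 102.9 in Norm_Prolif and 3530 to 3990 in Norm_SM, with 3560 to 5099 in Norm_Osteo and 1886 to 2522 in Norm_Chondr, Hypo_Chondr and Hypo_Osteo, and Acta2 stood at 20.9 ± 8.28 CPM (SD, n = 3) in Hypo_SM against 3254 ± 213 (n = 4) in Norm_SM. Markers of other cell types summed to 40.38 to 44.62 CPM in Hypo_SM and 2.71 to 15.7 elsewhere, with Cd68 at 32.7 to 36.4 and the leukocyte gene Ptprc near 0. Replicate 4 of Norm_Osteo stood apart from its group, with the osteoblast factor Sp7 at 45.4 CPM against 0.67 to 1.36 in the other 3 replicates, and Col2a1 at 775 CPM against 35.6 to 43.6. The osteoblast markers did not follow the labels in one way. Ibsp stood at 734 to 1910 CPM in Norm_Chondr, 457 to 811 in Hypo_Chondr, 63.3 to 75.7 in Hypo_Osteo and 0.384 to 3.2 in Norm_Osteo, and Sp7 at 112 to 219, 167 to 281 and 96.2 to 96.9 in the first 3 of these. Runx2 stood at 80 to 93.9 CPM in Norm_Chondr, 57.1 to 69.1 in Norm_Osteo, 76.1 to 89.7 in Hypo_Chondr and 125 to 150 in Hypo_Osteo, Alpl at 126 to 361, 1.39 to 40, 66.1 to 114 and 68.2 to 83.1, and Col1a1 at 35000 to 42200, 5660 to 9280, 42500 to 49300 and 8400 to 10600, while Bglap was below 1 CPM in all 28 libraries. Of the neural crest markers, Twist1 (45.5 to 471 CPM) and Tfap2a (27.8 to 138) were present in all 28 libraries, and Crabp1 stood at 2180 to 3100 CPM in Norm_Prolif, Hypo_Prolif and Hypo_SM, whereas Foxd3 was at 0 CPM in all 28 libraries and Sox10 at no more than 0.0268 CPM in any.

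The transcript ends of these genes bear directly on a poly-A library, so a few are printed here 5′ to 3′ from the mouse reference (mm10, GENCODE annotation), with T for U. Of the 61 members, 41 hold the stem-loop in an annotated transcript, against 58 of 55450 annotated genes (0.105%). A poly-A signal (AATAAA, or its variant ATTAAA) stands within the last 40 bases of an annotated end in 15 members, against 42.8% of all genes. Both features occur in 12 members and neither in 17. Capitals mark the stem-loop in the lines named stem-loop, and the poly-A signal in the lines named 3′ end. Hist1h1c codes for an H1, Hist1h2ae for an H2A, Hist3h2ba and Hist2h2be for H2Bs, Hist1h3g for an H3, and Hist1h4c and Hist1h4i for H4.
Hist1h1c stem-loop: ccaaaaGGCTCTTTTCAGAGCCaccactcc
Hist1h1c 3′ end: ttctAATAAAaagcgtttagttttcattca
Hist1h2ae stem-loop: aacaaaGGCTCTTTTCAGAGCCattcactt
Hist1h2ae 3′ end: ccAATAAAtgggtcaatttttttcagattc
Hist3h2ba stem-loop: cccaaaGGCTCTTTTCAGAGCCaccttcca
Hist3h2ba 3′ end: attAATAAAtttggttcaattttggccaca
Hist1h3g stem-loop: tttaaaGGCTCTTCTTAGAGCCacccatct
Hist1h4c stem-loop: acaaaaGGCCCTTTTCAGGGCCacccacaa
Hist1h4i stem-loop: cttaaaGGCCCTTTTTAGGGCCaccacaaa
Hist1h4i 3′ end: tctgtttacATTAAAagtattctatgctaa
Hist2h2be 3′ end: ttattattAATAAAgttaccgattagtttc

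In Hist1h1c the annotated transcript runs on for 840 bases after the stem-loop, in Hist1h4i for 330, in Hist3h2ba for 169 and in Hist1h2ae for 151. Hist1h4c also runs on for 454 bases after its stem-loop, but no poly-A signal stands within the last 40 bases of its annotated end. Hist2h2be has a poly-A signal at its annotated end and no stem-loop in its annotated transcript. The H2B gene Hist1h2bc, spread over 2 exons, has no annotated stem-loop either. Many members have near-identical copies, so their single-gene counts are uncertain: in 13 of the 61 at least 90% of the stretches of 100 bases are unique in the annotated transcripts. Of the members described below, 8 lie under 50%: Hist1h2ab (47.6%), Hist1h3b (43.4%), Hist2h3c2 (38.4%), Hist1h4k (35.7%), Hist1h2af (34.7%), Hist1h3i (31.4%), Hist1h2aj (8.3%) and Hist2h2aa2 (0%).

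RefSeq promoters (build GRCm38.p6, 250 bases before to 50 after the start) were matched for 54 of the 61 members and searched on both strands, beside 27025 promoters in all. TATAAA, the TATA box, stood in 31 of the 54 (57.4%), against 14.2% of all promoters. CCAAT stood in 83.3% against 37.9%: in every H1, H2A, H2B and H3 promoter matched, and in 3 of 12 H4 promoters. ATTTGCAT, the octamer bound by Pou2f1, stood in 6 of 13 H2A and 5 of 15 H2B promoters, 20.4% of the 54 against 1.8% of all, and in none of the H1, H3 and H4 promoters. ACGTG, a form of the core of the hypoxia response element, stood in 22.2% of the 54 and 19.7% of all promoters. No other form of that core was searched. These are matches of letters and not measured binding. The stretches below show an H1 promoter, an H4 promoter, and the bases between the divergent genes Hist1h2ae and Hist1h2bg, an H2A and H2B gene that share a promoter. Capitals mark the first 3 motifs on either strand. They lie at chr13:23738557-23738806 on the plus strand, chr13:23698459-23698708 on the minus strand and chr13:23571221-23571395 on the plus strand.
Hist1h1c promoter: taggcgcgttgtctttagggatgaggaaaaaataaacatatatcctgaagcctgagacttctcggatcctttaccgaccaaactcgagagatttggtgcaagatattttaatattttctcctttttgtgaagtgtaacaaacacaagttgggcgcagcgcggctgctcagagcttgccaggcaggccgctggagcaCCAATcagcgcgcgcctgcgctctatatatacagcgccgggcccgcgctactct
Hist1h4c promoter: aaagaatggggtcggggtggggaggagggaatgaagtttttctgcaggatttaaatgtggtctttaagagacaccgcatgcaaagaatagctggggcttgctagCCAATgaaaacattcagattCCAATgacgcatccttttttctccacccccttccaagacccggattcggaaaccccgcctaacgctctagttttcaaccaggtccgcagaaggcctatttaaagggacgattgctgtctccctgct
Hist1h2ae to Hist1h2bg: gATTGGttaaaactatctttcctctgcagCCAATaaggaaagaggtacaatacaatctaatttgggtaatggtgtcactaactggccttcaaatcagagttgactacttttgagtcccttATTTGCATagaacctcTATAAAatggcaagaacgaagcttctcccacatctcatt

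Summed over the 61 members, the TMM-scaled level was lowest in Norm_Prolif, at 36.6 ± 4.4 CPM (SD, n = 4), and next lowest in Hypo_Prolif, at 54.1 ± 0.941 (n = 3). At 21% O2 it stood at 106 ± 3.78 CPM in Norm_SM, 202 ± 12.0 in Norm_Chondr and 229 ± 19.8 in Norm_Osteo (n = 4 each). At 0.5% O2 it stood at 121 ± 7.54 CPM in Hypo_Osteo, 338 ± 33.0 in Hypo_Chondr and 615 ± 36.0 in Hypo_SM (n = 3 each). The ranges of neighbouring groups did not overlap, except for Norm_Chondr (185.7 to 214.5 CPM) and Norm_Osteo (199.9 to 242.3). Scaled by library size alone, Hypo_SM (306.1 to 325.1 CPM) lay within the range of Hypo_Chondr (276.6 to 345.7), and Norm_SM (132.0 to 140.6) lay above Hypo_Osteo (111.5 to 122.6). The sum is dominated by Hist1h1c, which took 28.8% of the member counts in Norm_Prolif and 44.0% to 57.2% in the other 7 groups. Without Hist1h1c the sum still ran from 26 ± 2.85 CPM in Norm_Prolif to 326 ± 19.2 in Hypo_SM. In bulk libraries such as these, fewer cells carrying a transcript and less transcript per cell cannot be told apart.

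**Figure D1:**
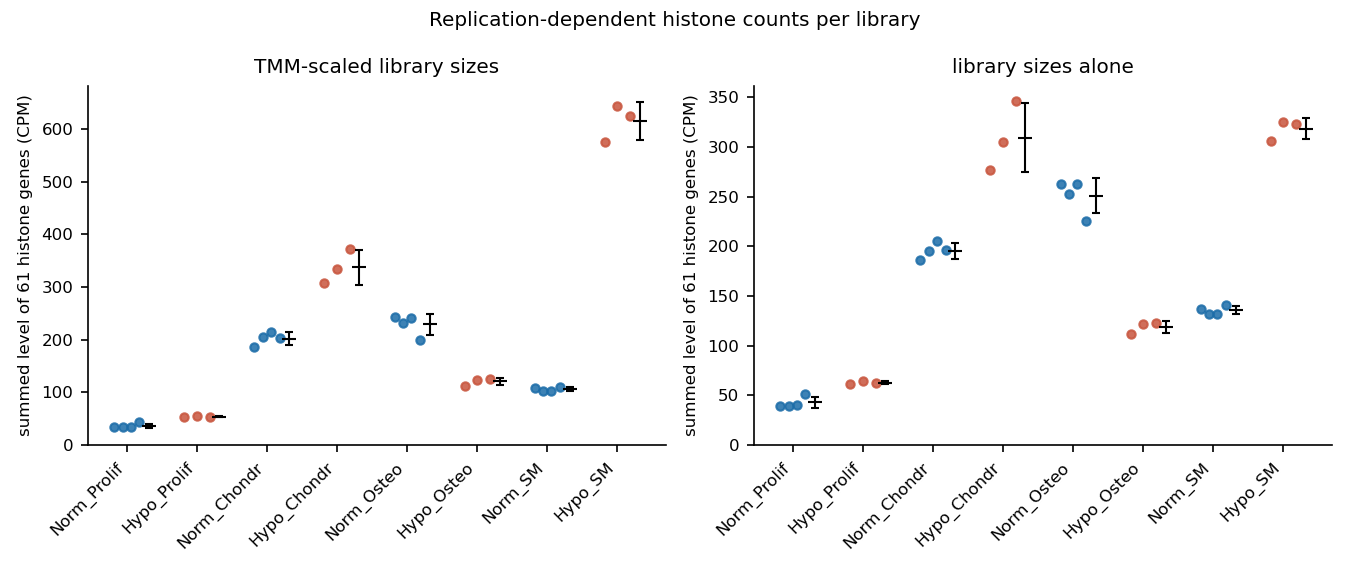
Summed level of the 61 members in each library (CPM, linear axis from 0) in the 8 groups, TMM-scaled on the left and scaled by library size alone on the right. Points are libraries, blue at 21% O2 and orange-red at 0.5% O2, and black bars are the mean ± SD. With TMM, Norm_Prolif lies lowest, at 33.78 to 43.13 CPM, and Hypo_SM highest, at 574.7 to 644.3 CPM, and by library size alone Hypo_SM lies within the Hypo_Chondr range.

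The first question is what leaving proliferation did at 21% O2. Genes of the S phase machinery fell, while the members Hist1h1c, Hist1h2bc and Hist1h2al rose in all 3 media. In Norm_Chondr against Norm_Prolif, 19 members rose and 5 fell of the 32 that passed the filter on low counts. Across all genes tested in that comparison, 74.9% were called, 37.7% as higher and 37.2% as lower. In Norm_Osteo 15 rose and 6 fell of 25 tested (all genes 78.7%: 40.9% higher, 37.8% lower), and in Norm_SM 14 rose and 7 fell of 27 (all genes 79.7%: 40.8% higher, 38.9% lower). These 3 comparisons share the Norm_Prolif libraries. The median log2 change of the members tested was 1.27, 2.17 and 0.86, and that of all genes tested was -0.00, 0.07 and 0.03. Which members pass the filter bears on these medians: 15 of the 61 were tested in none of the 10 pairwise comparisons, 9 passed only where Hypo_SM took part, and in 1 fit over all libraries, which tests 48 members, the medians were -0.44, -0.37 and -1.18. In that fit 18 members were higher and 8 lower in Norm_Chondr, 16 and 13 in Norm_Osteo, and 14 and 17 in Norm_SM, where the balance thus turned. Without the filter, with all 61 tested, the counts were 19 and 7, 17 and 14, and 14 and 17, with medians of -0.18, -0.31 and -1.10. The counts and medians over the members that passed the filter are therefore a description of those members only. A member passes where enough libraries reach the equivalent of 10 counts, and one that reached it in no library of the lower group had to differ: this holds for 6 of the 19 that rose and 2 of the 5 that fell in Norm_Chondr, 3 of 15 and 5 of 6 in Norm_Osteo, and 3 of 14 and 2 of 7 in Norm_SM. Those that rose this way include Hist2h2aa2 and Hist2h3c2 in all 3 media and Hist1h3b and Hist1h2ab in Norm_Chondr, and those that fell include Hist1h3e in Norm_Osteo and Norm_SM and Hist1h2af and Hist1h3g in Norm_Chondr and Norm_Osteo. Their fold changes are given without p. Scaled by library size alone, the split of all genes in Norm_Chondr was 27.2% higher to 51.2% lower, with a median of -0.35, and 16 members were higher and 8 lower. Without replicate 3 of Norm_Chondr the members called lower there numbered 8.

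Hist1h1c, an H1 gene at chr13:23738808-23740367 on the plus strand, stood at 9.63, 10.1, 9.58 and 12.9 CPM in the 4 Norm_Prolif libraries. The Norm_Chondr libraries gave 98.9, 115, 120 and 129 CPM, the Norm_Osteo libraries 131, 125, 127 and 98.7, and the Norm_SM libraries 55.7, 52.4, 52.7 and 56.7. All 12 differentiated libraries lay above all 4 proliferating ones. The log2 fold change was 3.54 in Norm_Chondr (SE 0.12, adjusted p = 1.65e-10), 3.57 in Norm_Osteo (SE 0.13, adjusted p = 1.1e-08) and 2.43 in Norm_SM (SE 0.09, adjusted p = 1.72e-12).

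Hist1h2bc, an H2B gene at chr13:23684199-23692908, moved the same way. Its libraries gave 3.95, 3.9, 4.9 and 5.71 CPM in Norm_Prolif, 30, 35.7, 38 and 29.8 in Norm_Chondr, 34.2, 32.9, 35.3 and 32.2 in Norm_Osteo and 13.9, 14.7, 13.4 and 16.2 in Norm_SM. No differentiated library overlapped the proliferating range, and the log2 fold changes were 2.94 (SE 0.14), 2.93 (SE 0.13) and 1.73 (SE 0.14), with adjusted p of 2.58e-09, 3.68e-08 and 8.32e-09.

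A pair of neighbouring Hist2 genes on chromosome 3 went from close to 0 to clear levels. Hist2h2aa2, an H2A gene at chr3:96239749-96240276 on the minus strand, had 0.0538, 0.203, 0.0994 and 0.07 CPM in Norm_Prolif. It had 4.85, 6.1, 7.61 and 5.02 CPM in Norm_Chondr, 9.99, 8.4, 7.05 and 7.75 in Norm_Osteo and 2.3, 2.66, 2.47 and 2.57 in Norm_SM. The log2 fold changes were 5.61 (SE 0.33), 6.09 (SE 0.31) and 4.37 (SE 0.35), each with groups that did not overlap. No stretch of 100 bases of Hist2h2aa2 is unique in the annotated transcripts, and it overlaps Gm20632 and Gm47311 on the opposite strand, so its count is uncertain. Its neighbour Hist2h3c2, an H3 gene at chr3:96238108-96239127 with 38.4% of its stretches unique, rose by 4.98 (SE 0.48), 5.41 (SE 0.46) and 3.81 (SE 0.54) on the log2 scale. Both are uncertain where the counting could share reads with a near-identical copy.

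The H2A gene Hist1h2al, annotated as a processed pseudogene away from the cluster at chr13:51202727-51203065, rose by 3.93, 4.78 and 3.37 on the log2 scale (SE 0.21, 0.17 and 0.19). Its Norm_Prolif libraries held 0.795 to 1.48 CPM and its Norm_Osteo libraries 30.5 to 34.1. Among H4 genes, Hist1h4h rose by 2.85, 3.27 and 2.06, and Hist1h4i rose by 1.92 in Norm_Chondr and 2.52 in Norm_Osteo. In Norm_SM Hist1h4i had a log2 change of 0.68 (SE 0.36, adjusted p = 0.0917) with overlapping groups.

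Other H3 genes split. Hist1h3b rose by 4.73 in Norm_Chondr (SE 0.52), from 0 to 0.161 CPM in Norm_Prolif to 1.49 to 3.24, as did the H2A gene Hist1h2ab by 4.64 (SE 0.6). In Norm_Osteo and Norm_SM neither gene passed the filter. Hist1h3e, at chr13:23561534-23562369, went the other way, from 0.753, 0.729, 1.03 and 0.91 CPM in Norm_Prolif to 0.309, 0.364, 0.427 and 0.255 in Norm_Chondr, 0.21, 0.0394, 0 and 0.16 in Norm_Osteo and 0.245, 0, 0.029 and 0.0583 in Norm_SM. All its differentiated libraries lay below all proliferating ones, with log2 changes of -1.24 (SE 0.32, adjusted p = 0.00373), -2.93 (SE 0.57) and -3.30 (SE 0.58). Hist1h3g, the H3 gene whose stem-loop is printed above, fell by 2.46 in Norm_Chondr and by 3.91 in Norm_Osteo. In Norm_Osteo it was at 0 CPM in 3 of 4 libraries and at 0.136 in replicate 3.

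Members that fell also included the H1 gene Hist1h1e, which fell by 0.79 in Norm_Osteo (SE 0.22) and by 2.17 in Norm_SM (SE 0.36). Its change of -0.90 in Norm_Chondr became -0.81 without Norm_Chondr replicate 2 and -0.80 without Norm_Prolif replicate 3, and no longer passed. The H2A gene Hist1h2af had 109 counts over the 4 Norm_Prolif libraries and 1 over the 4 Norm_Osteo libraries, a CPM ratio of 73.6 (95% exact binomial counting interval 12.9 to 2930). That 1 count lay in Norm_Osteo replicate 4, and the fitted log2 change of -5.51 (SE 0.84) became -7.39 without it. The H4 gene Hist2h4 fell by 2.01 in Norm_SM (SE 0.51, adjusted p = 0.00198), while its changes of -0.50 and -0.48 in Norm_Chondr and Norm_Osteo did not pass.

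Hist2h2be, the H2B gene with a poly-A signal and no annotated stem-loop, fell by 0.95 in Norm_Chondr (SE 0.3) and rose by 0.59 in Norm_Osteo (SE 0.18) and 0.66 in Norm_SM (SE 0.19). Hist3h2a, an H2A gene which overlaps Trim17 on the same strand, rose by 1.03, 2.22 and 2.47 (SE 0.27, 0.23 and 0.2). Of the 15 members with a poly-A signal, 6 of 8 tested rose and 1 fell in Norm_Chondr, 7 of 8 rose and 0 fell in Norm_Osteo, and 6 of 9 rose and 1 fell in Norm_SM. Among the 46 without one, 13 of 24, 8 of 17 and 8 of 18 rose, and 4, 6 and 6 fell. Over all genes tested 37.7%, 40.9% and 40.8% were called higher, and the difference between both member sets was not tested.

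**Figure D2:**
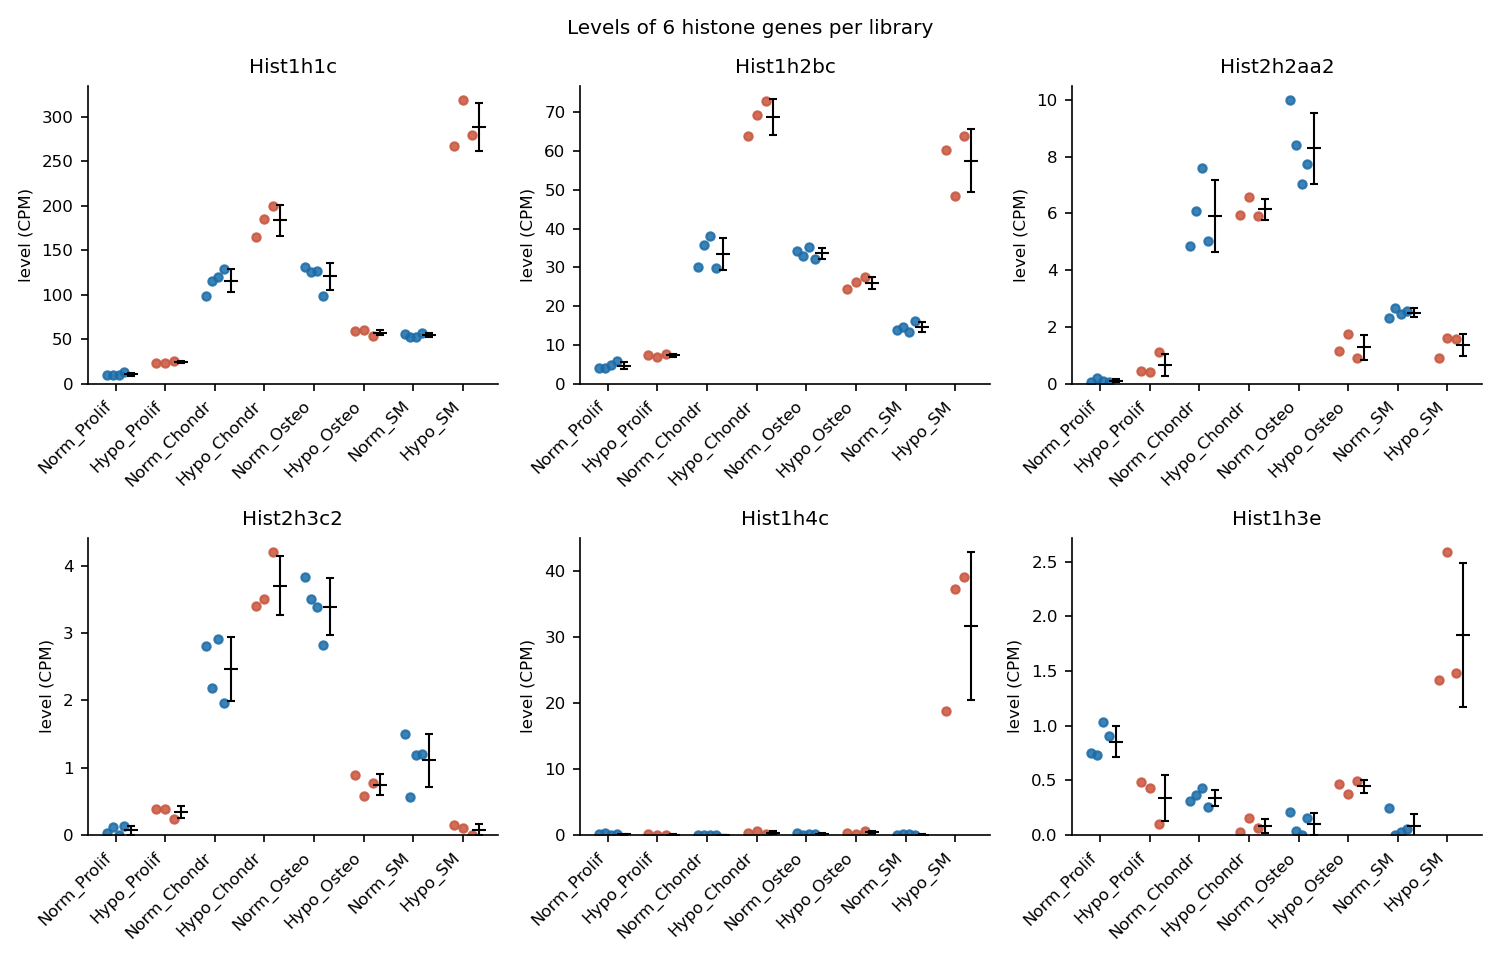
TMM-scaled CPM in each library for 6 members: Hist1h1c, Hist1h2bc, Hist2h2aa2, Hist2h3c2, Hist1h4c and Hist1h3e. Points are libraries (blue 21% O2, orange-red 0.5% O2) and black bars are the mean ± SD. Hist1h1c and Hist1h2bc lie above Norm_Prolif in every other group, Hist1h4c is high in Hypo_SM only among the 8 groups, and Hist2h3c2 is low in proliferating cultures and in Hypo_SM.

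At 0.5% O2 the same media were compared with Hypo_Prolif. In Hypo_Chondr 20 members rose and 1 fell of 27 tested, where 69.5% of all genes were called (34.9% higher, 34.6% lower). In Hypo_Osteo 9 rose and 1 fell of 20 tested, where 71.3% of all genes were called (36.2% higher, 35.1% lower). Of the rises, 4 of the 20 and 1 of the 9 were of members that reached the filter's minimum in no Hypo_Prolif library and had to be higher: Hist1h2ae, Hist1h3b, Hist1h2ab and Hist1h3d in Hypo_Chondr, and Hist1h3d in Hypo_Osteo. The member that fell was Hist2h2be in both, by 1.05 (SE 0.25, adjusted p = 0.00192) and by 1.59 (SE 0.28, adjusted p = 0.000125). By library size alone all genes split 23.4% higher to 50.2% lower in Hypo_Chondr, with 19 members higher and 2 lower, and 27.9% to 45% in Hypo_Osteo, with 8 and 3. The number that fell in Hypo_Chondr was 3 without Hypo_Chondr replicate 2 and 2 without Hypo_Prolif replicate 1 or 3. In Hypo_Osteo it was 3 without Hypo_Osteo replicate 3 and 2 without Hypo_Osteo replicate 1 or Hypo_Prolif replicate 1.

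Hist1h1c stood at 23.4, 22.9 and 25.1 CPM in Hypo_Prolif, 165, 185 and 200 in Hypo_Chondr and 58.6, 59.9 and 53.8 in Hypo_Osteo. None of these groups overlapped, and the log2 change was 2.94 in Hypo_Chondr (SE 0.08, adjusted p = 3.62e-12) and 1.27 in Hypo_Osteo (SE 0.09, adjusted p = 2.9e-09). Hist1h2bc rose by 3.23 in Hypo_Chondr (SE 0.09) and by 1.83 in Hypo_Osteo (SE 0.11), from 6.97 to 7.63 CPM to 64 to 73 and 24.4 to 27.5. The H4 gene Hist1h4i rose by 2.87 (SE 0.23) and 2.83 (SE 0.23), and Hist1h4h by 3.92 (SE 0.41) and 2.81 (SE 0.48).

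Hist2h2aa2 rose by 3.23 in Hypo_Chondr (SE 0.31, adjusted p = 7.6e-07), and in Hypo_Osteo its change of 0.97 (SE 0.45, adjusted p = 0.0642) did not pass. Its Hypo_Prolif libraries, 0.455, 0.395 and 1.1 CPM, overlapped the Hypo_Osteo libraries, 1.16, 1.75 and 0.915. Hist2h3c2 rose by 3.42 in Hypo_Chondr (SE 0.31). In Hypo_Osteo its change of 1.12 (SE 0.45, adjusted p = 0.0365) no longer passed without Hypo_Osteo replicate 1 or 3 (0.98 and 1.10) or without any of the Hypo_Prolif replicates 1, 2 and 3 (1.23, 1.23 and 0.92). Hist1h3b rose by 6.17 in Hypo_Chondr (SE 0.47), from 0 to 0.0975 CPM to 3.9, 3.98 and 5.39, and Hist1h3d, an H3 gene, rose by 4.38 (SE 0.38) there and by 2.51 (SE 0.52) in Hypo_Osteo. Hist1h2ab rose by 4.77 in Hypo_Chondr (SE 0.56).

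The next comparisons set 0.5% O2 against 21% O2 within each culture condition. In proliferating cells 5 members rose and 3 fell of 26 tested, where 65.4% of all genes were called (33.1% higher, 32.3% lower). Hist1h1c rose by 1.24 (SE 0.11, adjusted p = 2.6e-07), Hist1h2al by 1.61 (SE 0.26), Hist2h2aa2 by 2.45 (SE 0.55) and Hist1h2bc by 0.73 (SE 0.16), each with groups that did not overlap. Hist2h2aa2 reached the filter's minimum in no Norm_Prolif library and Hist1h2af in no Hypo_Prolif library, so both had to differ. The rise of Hist2h2be, 0.53 (SE 0.21, adjusted p = 0.0359), no longer passed without Hypo_Prolif replicate 2 or 3 (0.55 and 0.41) or Norm_Prolif replicate 1 or 2 (0.51 and 0.41). The members that fell were Hist1h1b (-1.27), Hist1h2af (-1.87) and Hist1h3e (-1.24). The count of 3 became 1 without Hypo_Prolif replicate 3, Norm_Prolif replicate 2 or Norm_Prolif replicate 3. Without those libraries Hist1h1b stood at -0.99 and -1.06 (Hypo_Prolif 3 and Norm_Prolif 2), and at -1.23 without Hypo_Prolif replicate 1, and Hist1h3e at -0.82 and -1.15 (Hypo_Prolif 3 and Norm_Prolif 3), none of which passed. Without any 1 of the Norm_Prolif replicates 1 to 4, Hist1h2af did not pass the filter and was not tested.

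In chondrocyte medium 7 members rose in Hypo_Chondr over Norm_Chondr, of 28 tested, where 22.2% of all genes were called (10.4% higher, 11.8% lower). They were Hist1h2bc (1.04, SE 0.1), Hist1h1c (0.66, SE 0.09), the H4 genes Hist1h4h (1.48, SE 0.25) and Hist1h4i (1.20, SE 0.17), the H3 genes Hist1h3d (1.38, SE 0.3) and Hist1h3b (1.06, SE 0.27), and the H2B gene Hist1h2be (1.07, adjusted p = 0.0137), which the naming rule did not choose and which overlaps Hist1h1e on the same strand. The change of Hist1h3b no longer passed without Hypo_Chondr replicate 3 (0.89) or Norm_Chondr replicate 3 (0.98). The number of members that fell was 0 by edgeR, 0 by DESeq2 and 0 at an unadjusted p under 0.05 in edgeR, and 1 without Hypo_Chondr replicate 2. The 6 chondrocyte markers moved between these groups as well: they summed to 2817 to 8484 CPM in Norm_Chondr and 844.6 to 1260 in Hypo_Chondr, with Col2a1 at 1040 to 5880 and 194 to 372, and their part in the histone values was not tested. By library size alone all genes split 7.68% higher to 16.4% lower, and 7 members were still higher. Hist2h2aa2 had a log2 difference of 0.05 (SE 0.18, adjusted p = 0.871) with overlapping groups, 4.85 to 7.61 CPM against 5.91 to 6.57.

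In osteoblast medium more members fell than rose. In Hypo_Osteo against Norm_Osteo 10 fell and 4 rose of 24 tested, where 54.3% of all genes were called (27.3% lower, 27% higher). Hist2h2aa2 fell from 9.99, 8.4, 7.05 and 7.75 CPM to 1.16, 1.75 and 0.915, groups that did not overlap, with a log2 change of -2.69 (SE 0.25, adjusted p = 2.41e-05). Hist2h3c2 fell from 2.82 to 3.84 CPM to 0.584 to 0.89, by 2.17 (SE 0.25, adjusted p = 9.28e-05). Of the other Hist2 members, the H2B genes Hist2h2bb and Hist2h2be fell by 2.85 (SE 0.64) and 1.66 (SE 0.26), so that 4 of the 5 Hist2 members tested fell. By library size alone all genes split 20.9% higher to 35.8% lower, and 2 members were higher and 11 lower. Hist1h2al fell by 2.18 (SE 0.26), Hist1h1c by 1.07 (SE 0.11, adjusted p = 4.52e-05), Hist3h2a by 0.73 (SE 0.19) and Hist1h2bc by 0.37 (SE 0.08).

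Of the rises under low oxygen in osteoblast medium, 1 passed without each library in turn. Hist1h4i rose by 0.53 (SE 0.15, adjusted p = 0.0127), from 4.23 to 5.38 CPM to 6.49 to 7.32. Hist1h2ab (1.82), Hist1h3e (2.05) and Hist1h4k, an H4 gene (1.07), also passed and are given without p. Hist1h3e and Hist1h4k reached the filter's minimum in no Norm_Osteo library and had to be higher in Hypo_Osteo. Hist1h2ab had 2, 1, 10 and 2 counts in the Norm_Osteo libraries and 14, 14 and 11 in Hypo_Osteo, so it met the filter through its Hypo_Osteo counts. The count of 4 became 2 without Hypo_Osteo replicate 1 or 3 or Norm_Osteo replicate 1 or 4, and 1 without replicate 2 of either group. Hist1h4k did not pass without Hypo_Osteo replicate 1 or 2 (1.04 and 0.90) or any of the Norm_Osteo replicates 1 to 4 (1.13, 0.94, 1.11 and 1.09). Hist1h2ab did not pass without Hypo_Osteo replicates 1 to 3 (1.71, 1.81 and 1.94) or Norm_Osteo replicates 1 and 2 (1.61 and 1.55), and Hist1h3e without Hypo_Osteo replicate 1 or 2 (2.03 and 2.16) or Norm_Osteo replicate 2 (1.81), and Hist1h3e was not tested without Hypo_Osteo replicate 3 or Norm_Osteo replicate 4, where it did not pass the filter. Without Hypo_Osteo replicate 1 the H4 gene Hist1h4n, named here after its values were seen, passed in their place. Without Norm_Osteo replicate 4, the library that stood apart, 10 members fell and 2 rose.

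The largest fitted changes of named members were in Hypo_SM. Against Hypo_Prolif, 35 members rose and 1 fell of 38 tested, where 70% of all genes were called (33.8% higher, 36.2% lower), with a member median of 3.97 against -0.07 for all genes. Against Norm_SM, 36 rose and 4 fell of 41 tested, where 75.6% of all genes were called (35.4% higher, 40.2% lower), with a member median of 4.36 against -0.12. Both comparisons share the Hypo_SM libraries. A member that passes the filter only through its Hypo_SM counts had to be higher there, and in no library of the other group did 13 of the 35 and 15 of the 36 reach the filter's minimum, so these counts and medians describe the members tested and support nothing further. Without the filter, over all 61 members, 43 were higher and 1 lower against Hypo_Prolif, and 46 and 4 against Norm_SM. H4 genes took 16.8% of member counts in Hypo_SM, against 3.07% in Norm_SM and 11.9% in Norm_Prolif.

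The H4 gene Hist1h4c, at chr13:23697635-23698454 on the minus strand, gave 0.0975, 0.0359 and 0.0685 CPM in Hypo_Prolif, 0, 0.107, 0.145 and 0 in Norm_SM, and 18.8, 37.2 and 39 in Hypo_SM. Its level in the other 5 groups was at most 0.669 CPM in any library, so the 3 Hypo_SM libraries lay above all 25 others. The fitted log2 change was 8.84 against Hypo_Prolif (SE 0.43) and 8.88 against Norm_SM (SE 0.44). Hist1h4c, Hist1h4b, Hist1h4f, Hist1h2ae, Hist1h2ab and Hist1h2aj passed the filter only through their Hypo_SM counts in both comparisons, so their changes are a description with no p given. Further H4 genes, which code for the same core histone, were also highest there. Hist1h4b had 6.97, 5.59 and 8.89 CPM in Hypo_SM and at most 0.704 elsewhere (log2 changes 5.46 and 7.78), and Hist1h4h had 9.37, 9.47 and 9.26 (5.44 and 3.73). Hist1h4f had 3.22, 3.79 and 3.33 CPM in Hypo_SM, with 117 counts against 1 in Norm_SM, a ratio of 475 with a counting interval of 83.6 to 18900.

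The H2A gene Hist1h2ae, at chr13:23570517-23571220 on the minus strand, gave 0.195, 0.18 and 0.103 CPM in Hypo_Prolif and 0.245, 0.0537, 0.116 and 0.0583 in Norm_SM. It gave 21.1, 18 and 21.8 CPM in Hypo_SM, far from both groups, with log2 changes of 7.06 (SE 0.27) and 7.45 (SE 0.31). The H2B gene on the other side of its promoter, Hist1h2bg, rose by 5.86 against Hypo_Prolif (adjusted p = 2.16e-07). Hist3h2ba, an H2B gene at chr11:58948920-58949533, stood at 0.24 to 0.358 CPM in Hypo_Prolif, 0.612 to 0.986 in Norm_SM and 27.3, 14.8 and 22.1 in Hypo_SM (log2 changes 6.33, SE 0.32, and 4.80, SE 0.25). The unprocessed H2A pseudogene Hist1h2aj had 121 counts in Hypo_SM against 1 in Hypo_Prolif, a ratio of 311 (54.8 to 12400), and 2 in Norm_SM, a ratio of 246 (66.5 to 2050). Only 8.3% of its 100-base stretches are unique, so these reads may be shared with other H2A genes.

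Hist1h1c stood at 267, 319 and 279 CPM in Hypo_SM and rose by 3.72 against Hypo_Prolif (SE 0.1) and by 2.47 against Norm_SM (SE 0.08). Hist1h2bc, at 60.4, 48.4 and 63.8 CPM, lay just below the Hypo_Chondr libraries (64, 69.4 and 73 CPM) and rose by 3.10 and 2.05. Among H3 genes, Hist1h3e rose by 2.52 (SE 0.64) and 4.48 (SE 0.78), and Hist1h3i by 2.71 (SE 0.57) and 5.19 (SE 0.83). Against Norm_SM both reached the filter's minimum in Hypo_SM alone. The H1 gene Hist1h1e rose by 1.83 (SE 0.27) and 4.01 (SE 0.41).

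Members outside the Hist1 cluster went both ways. Hist2h2be fell by 1.95 against Hypo_Prolif (SE 0.49, adjusted p = 0.00419) and by 2.14 against Norm_SM (SE 0.44, adjusted p = 0.000414), from 2.86 to 4.16 CPM in Norm_SM to 0.225, 1.1 and 1.11. Hist2h3c2 had 152 counts in Norm_SM and 3 in Hypo_SM, a ratio of 12.5 lower in Hypo_SM with a counting interval of 4.19 to 61.2. Hist3h2a fell by 1.54 against Norm_SM (SE 0.3). The change of Hist2h2aa2 against Norm_SM, -0.83 (SE 0.35, adjusted p = 0.0422), did not pass without Hypo_SM replicate 1 (-0.61) or without any of Norm_SM replicates 1 to 4 (-0.89, -0.81, -0.85 and -0.83). The change of Hist2h2aa2 by library size alone was -2.20 (adjusted p = 2.68e-05), that of Hist3h2a -2.91, and that of Hist2h2be -3.22 against Hypo_Prolif and -3.51 against Norm_SM. Like Hist3h2ba above, Hist2h4 rose, by 2.86 (SE 0.44) and 4.38 (SE 0.61).

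Some other RNAs, from a list of RNAs that lack a long poly-A tail, were also high in Hypo_SM. Of the 15 on the list, 5 passed the filter there and rose: Rn7sk, mt-Rnr1, mt-Rnr2, and, passing only through their Hypo_SM counts, Vaultrc5 (4.87, 14.5 and 12 CPM in Hypo_SM, at most 0.136 elsewhere) and Rny1 (1.02 to 1.12 CPM, at most 0.263 elsewhere). The other 10 were at no more than 1.2 CPM in any Hypo_SM library, and Rmrp, Rpph1 and Rn7s6 were at 0 in all 28 libraries. In the other groups the list summed to 220.3 to 233.1 CPM in Norm_Prolif, 402.5 to 551.6 in Norm_Chondr, 268.2 to 481.1 in Norm_Osteo and 473.2 to 577.9 in Norm_SM. It summed to 706.6 to 779.3 in Hypo_Prolif, 538.6 to 768.9 in Hypo_Chondr and 794.8 to 865.9 in Hypo_Osteo. Norm_Prolif was lowest for the list and for the members, but the other groups did not keep the order of the member sums. Hypo_Prolif, next lowest for the members, lay above Norm_Chondr, Norm_Osteo and Norm_SM on the list. In these groups, as in Hypo_SM, most of the list sum was mitochondrial ribosomal RNA. Rn7sk also rose in Norm_Osteo (1.16), Norm_SM (0.83) and Hypo_Prolif (0.66) against Norm_Prolif and in Hypo_Osteo (1.00) against Hypo_Prolif. Its changes in Norm_Chondr against Norm_Prolif (0.17) and Hypo_Chondr against Hypo_Prolif (-0.06) did not pass. Nor did those in Hypo_Chondr against Norm_Chondr (0.45) and Hypo_Osteo against Norm_Osteo (0.5). Rn7sk, a small nuclear RNA that holds back transcription elongation, stood at 3.43 ± 0.665 CPM (SD, n = 4) in Norm_Prolif and 1397 ± 181 (n = 3) in Hypo_SM, with a log2 change of 8.17 against Hypo_Prolif (SE 0.14, adjusted p = 1.18e-11). By library size alone the list summed to 116900 to 133700 CPM in Hypo_SM and at most 894.4 CPM in any other library, most of it mitochondrial ribosomal RNA. All 28 libraries carry the same poly-A label and protocol, and the labels do not say whether selection for poly-A worked alike in the Hypo_SM libraries, so every Hypo_SM level of a transcript without a poly-A tail has that limit. The part of this RNA composition in the histone values, in Hypo_SM or in the other groups, was not tested. Scaled by library size alone, the median of all genes shifted to -1.35 against Hypo_Prolif and -1.49 against Norm_SM, and all genes split 12.4% higher to 70.6% lower and 13.4% to 72.6%. By that scaling 28 members were higher and 1 lower in the first comparison and 32 and 5 in the second, with Hist1h4c at 7.60 and 7.53, Hist1h2ae at 5.80 and 6.10, and Hist1h1c at 2.44 and 1.10. Hist1h2al turned to -0.05 (adjusted p = 0.787) against Norm_SM, from 1.32 with TMM, and 3 named members did not pass against Hypo_Prolif: Hist1h1e (0.55, adjusted p = 0.0804), Hist1h3e (1.24, adjusted p = 0.0877) and Hist1h4k (1.14, adjusted p = 0.0854). Against Norm_SM the H3 genes Hist1h3d (0.88, adjusted p = 0.11) and Hist1h3g (0.52, adjusted p = 0.525) did not pass by that scaling.

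**Figure D3:**
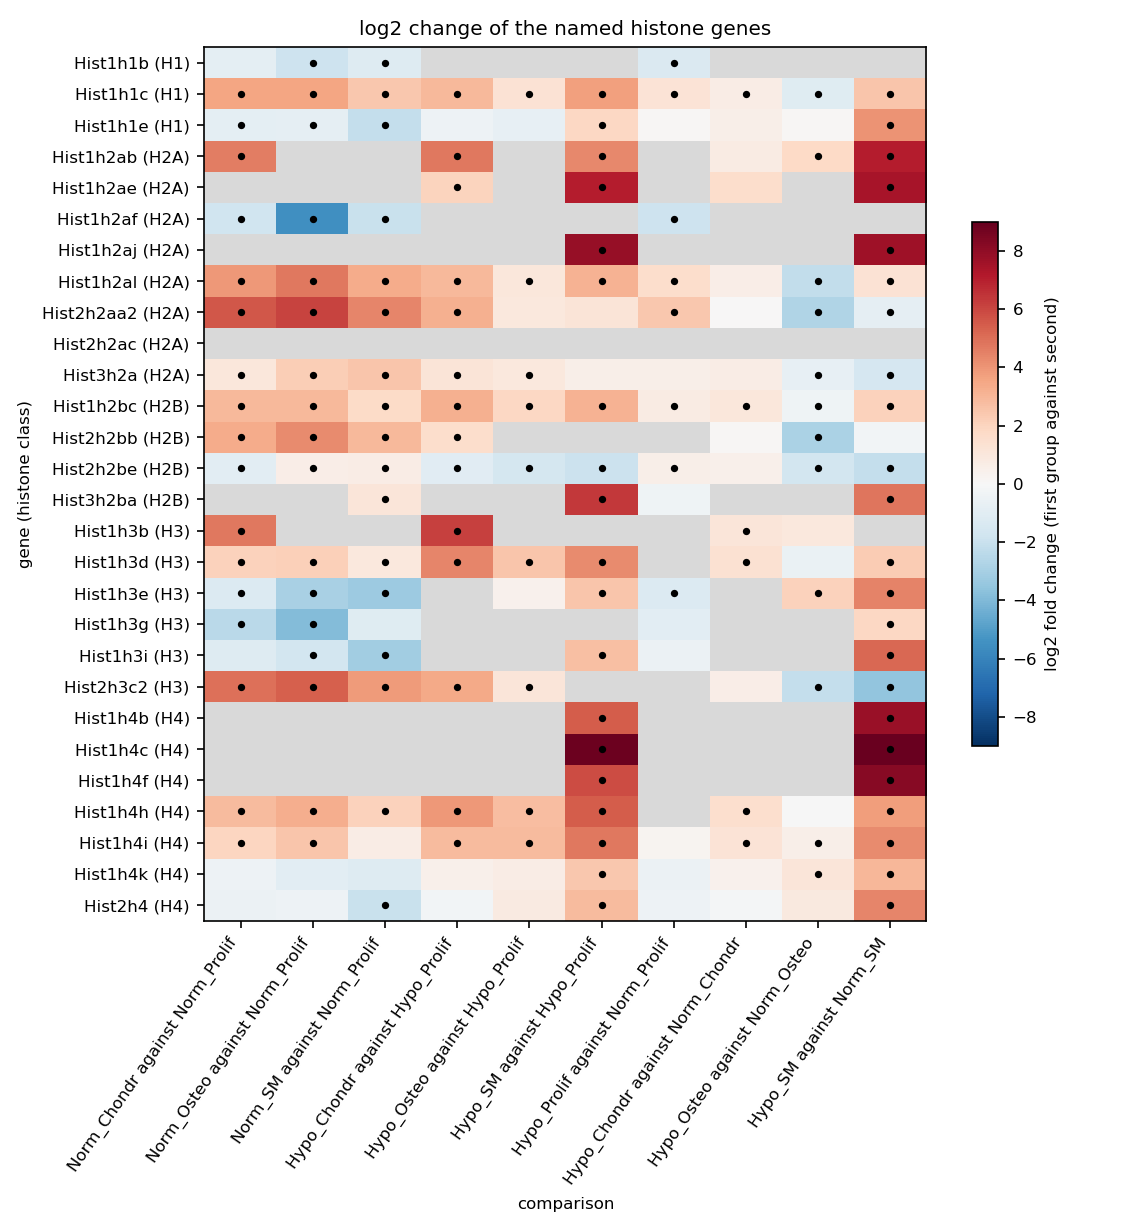
Log2 fold change of the 28 named members (rows) in the 10 pairwise comparisons (columns), with the colour scale from -9 to 9. Black dots mark members called at an adjusted p under 0.05 and grey cells were not tested. The Hypo_SM columns are red for nearly all Hist1 members, up to 8.88 for Hist1h4c, and blue for Hist2h2be in both and for Hist2h3c2 against Norm_SM, with Hist2h3c2 not tested against Hypo_Prolif.

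Whether the change from proliferation depended on oxygen was tested by interaction terms, the hypoxic change minus the normoxic change. In chondrocyte medium 3 members had a higher and 4 a lower change at 0.5% O2, of 37 tested, where 43.5% of all genes were called (21.6% higher, 21.9% lower). In osteoblast medium the counts were 7 and 11 of 35 (all genes 54.2%: 28.9% higher, 25.3% lower), and in smooth muscle medium 37 and 4 of 46 (all genes 70.4%: 34.9% higher, 35.5% lower). By library size alone the last split was 12.9% higher to 64.7% lower over all genes and 30 to 6 over members. The count of 4 lower in chondrocyte medium became 2 without any of Hypo_Chondr replicates 1 and 2, Hypo_Prolif replicates 1 and 2, Norm_Chondr replicates 1 to 3 and Norm_Prolif replicate 3. The count of 7 higher in osteoblast medium became 4 without Norm_Prolif replicate 3. For Hist1h1c the term was -0.57 in chondrocyte (SE 0.15, adjusted p = 0.00462), -2.26 in osteoblast (SE 0.15, adjusted p = 1.17e-08) and 1.27 in smooth muscle medium (SE 0.13, adjusted p = 1.24e-08). The last turned to -0.07 (adjusted p = 0.664) by library size alone. Hist2h2aa2 had the lowest called terms in chondrocyte and osteoblast medium, -2.35 (SE 0.51) and -5.08 (SE 0.56), and Hist2h3c2 in smooth muscle medium, -5.65 (SE 1.1).

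The partners of these genes were counted beside them. Of 26 S phase genes, all 26 fell in each of Norm_Chondr, Norm_Osteo and Norm_SM, where 37.2%, 37.8% and 38.9% of all genes were called lower, with medians of -1.85, -3.24 and -2.28, and Mcm5, a subunit of the replicative helicase, fell, with log2 changes of -2.34, -4.82 and -2.97. In Norm_Osteo Mcm5 stood at 4.09, 4.22 and 3.83 CPM in replicates 1 to 3 and at 19.2 in replicate 4, and without that library its change was -5.83 and the S phase median -3.52. At 0.5% O2, 23, 21 and 17 of the 26 fell in Hypo_Chondr, Hypo_Osteo and Hypo_SM, and 3, 3 and 4 rose (all genes 34.6%, 35.1% and 36.2% lower, 34.9%, 36.2% and 33.8% higher). Against 21% O2, 25 fell in Hypo_Prolif and 21 in Hypo_Chondr (all genes 32.3% and 11.8% lower), while 9 rose and 1 fell in Hypo_Osteo and 16 rose and 1 fell in Hypo_SM (all genes 27% and 35.4% higher). The direction in Hypo_SM rests on the scaling: by library size alone 2 of the 26 were higher and 19 lower, and the median turned from 0.55 to -0.82. In Hypo_Osteo 6 were higher and 2 lower by library size alone, and 17 and 1 without Norm_Osteo replicate 4. Of 21 histone mRNA processing and transcription genes, 17, 17 and 18 fell in the normoxic media, beside the same shares of all genes, with medians of -0.94 in Norm_Chondr and -1.06 in Norm_Osteo. Slbp stood at 75.8 ± 4.0 CPM in Norm_Prolif and fell in Norm_Chondr, Norm_Osteo and Norm_SM, with log2 changes of -1.36, -1.92 and -1.34. In Hypo_SM against Norm_SM 5 of the 21 rose and 8 fell (all genes 35.4% higher, 40.2% lower), with a median of -0.08. By library size alone 1 was higher and 18 lower, with a median of -1.45. With TMM, Lsm11 rose by 1.39 there, and the change of Slbp, -0.12, did not pass. Npat fell by 1.22 in that comparison, and by 2.59 by library size alone.

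Replacement histone genes, 11 in all, included 2, 2 and 4 that rose and 7, 6 and 6 that fell in the normoxic media, where 37.7%, 40.9% and 40.8% of all genes were called higher and 37.2%, 37.8% and 38.9% lower. Their medians were -0.68, -0.39 and -0.25. Scaled by library size alone, 0 rose and 9 fell in Norm_Chondr (median -1.03), 1 and 8 in Norm_Osteo, and 4 and 6 in Norm_SM. In Hypo_SM against Norm_SM 6 rose and 4 fell (all genes 35.4% higher, 40.2% lower), with a median of 0.48, but by library size alone 2 were higher and 9 lower, with a median of -0.89. H3f3a, which codes for replacement histone H3.3, fell by 2.46 there, and by 3.83 by library size alone.

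**Figure D4:**
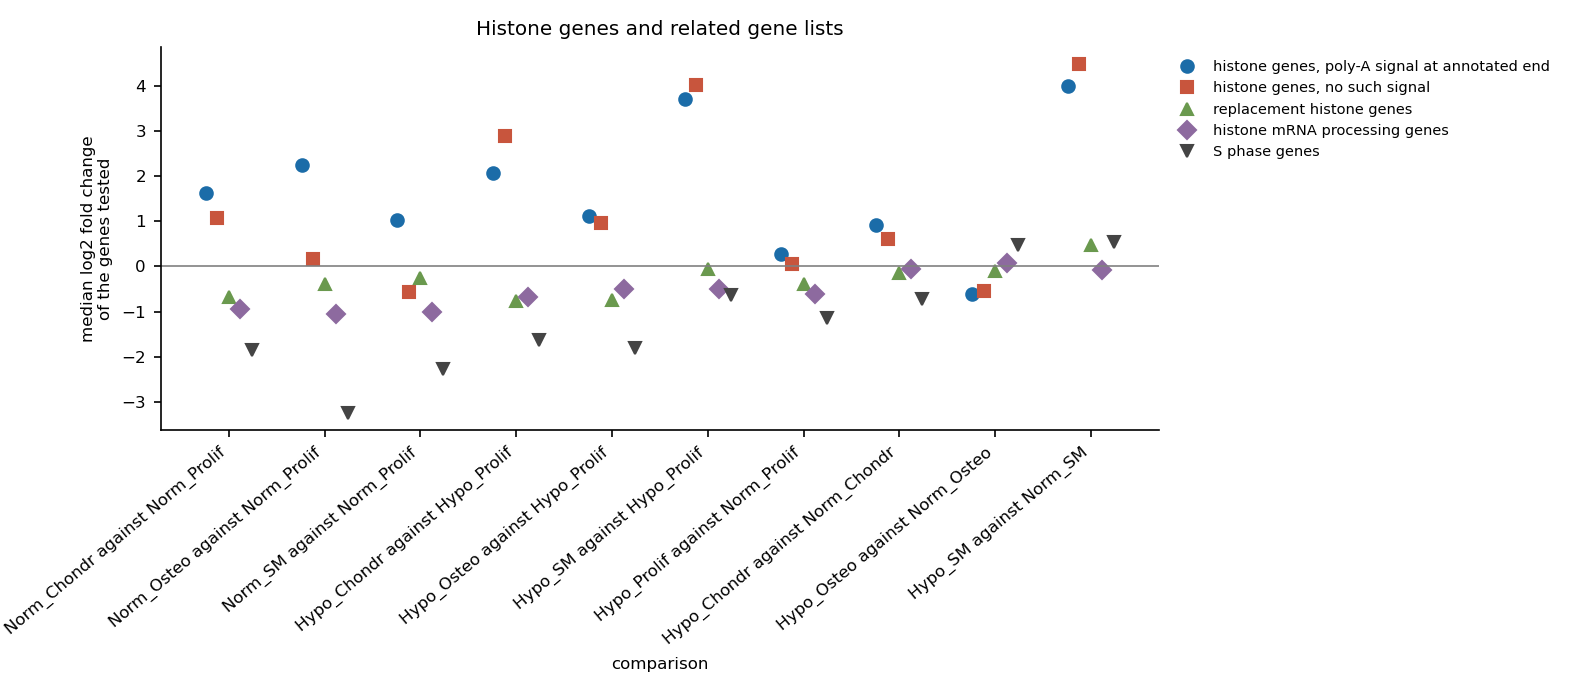
Median log2 change of the genes tested in each of the 10 pairwise comparisons, for members with and without a poly-A signal at an annotated end, replacement histones, histone mRNA processing genes and S phase genes. Each point is 1 list in 1 comparison. In the normoxic media S phase genes lie between -1.85 and -3.24, and in Hypo_SM both member sets lie between 3.72 and 4.48.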

How the data were processed

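Per the labels, RNA of the 28 O9-1 samples was purified by column and made into stranded libraries. The authors deposited whole-number read counts for 54429 genes. Per the submitters' processing notes the tools were HISAT2 2.0.5, StringTie 1.3.3b and featureCounts 1.5.0-p3 with build mm10, and how strand and multiply mapped reads were counted is not given in the sources used here. The authors' deposited comparison tables (log2 fold changes and p-values, per the file headers) gave symbols only, and 70 of their per-sample columns were not used. A further 8 histone-named genes without a deposited symbol, at most 30 counts each over all libraries, and 1 pseudogene stayed out.

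Counts were scaled by TMM, filtered (filterByExpr, minimum count 10, minimum total 15) and tested two-sided with the quasi-likelihood test of edgeR 4.0.16 under R 4.3.3, each comparison on its own groups, with Benjamini-Hochberg adjustment over all genes tested and calls at an adjusted p under 0.05. Levels are CPM scaled over all libraries. On simulated data 99% of 2-fold and 100% of 4-fold changes were recovered (Norm_SM against Norm_Prolif, 14589 genes). Recovery among the members alone, many of which had few counts, was not tested. Alternatives were DESeq2 1.42.0, limma-voom 3.58.1, library size alone, no filter, 1 fit over all libraries, a replicate block and leaving out each library. Named members were the 2 with the highest level in each class, the 3 called members with the largest rise and fall in each comparison with a mean of at least 10 counts in the higher group, the extreme called members of each interaction, and those of Hist2, Hist3 and Hist4 with a mean of at least 10 counts in any group. Members and lists were chosen with earlier results of these data known. Counting intervals and ratios cover counting error only.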

Additional observations from a re-analysis of the deposited data

Results flagged for a closer look

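Each group of 4 libraries was checked for a library far from the others, 116 groups in all, and chance alone flags about 1 in 20. That rate does not hold where the other 3 libraries are at 0, since then any count flags the fourth, as for 9 of the 15 values given first here. In Norm_Prolif, replicate 4 had the highest summed level, 43.1 CPM against 33.8 to 34.8, and the highest Hist1h1c level, 12.9 against 9.58 to 10.1. In Norm_Osteo, replicate 4 was highest for Hist1h2af (0.032 CPM against 0), Hist1h2aj (0.032 against 0), Hist2h2ac (0.0641 against 0) and Hist1h4f (0.32 against 0 to 0.0339). In Norm_Osteo replicate 3, Hist1h2ab stood at 0.339 CPM against 0.0394 to 0.0699 and Hist1h3g at 0.136 against 0, and in replicate 1 Hist1h4b stood at 0.0349 against 0. In Norm_SM, Hist1h2ab and Hist1h4f each stood at 0.0292 CPM in replicate 4 against 0, Hist1h4b at 0.122 in replicate 1 against 0, Hist2h2ac at 0.245 in replicate 1 against 0 to 0.0292, and Hist1h4i at 1.91 in replicate 2 against 1.02 to 1.16. Hist3h2ba stood at 0.162 CPM in Norm_Chondr replicate 2 and at 0 in the other 3 replicates. Many of these rest on single counts.

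The interaction test of edgeR called an oxygen dependence of the change from proliferation for several named members. Those other than Hist1h1c were chosen as the extreme called terms of each medium. Each of them had few counts in at least 1 of the groups compared, so their terms are a description given without p. In chondrocyte medium the term was 2.71 for Hist1h2ae (SE 0.77, with 0.103 to 0.195 CPM in Hypo_Prolif). It was -2.35 for Hist2h2aa2 (SE 0.51, with 0.0538 to 0.203 CPM in Norm_Prolif) and -0.57 for Hist1h1c (SE 0.15, adjusted p = 0.00462). In osteoblast medium it was 5.45 for Hist1h2af (SE 1.12, with 1 count in all over the Norm_Osteo libraries), and 7.18 without Norm_Osteo replicate 4. It was -5.08 for Hist2h2aa2 (SE 0.56) and -2.26 for Hist1h1c (SE 0.15, adjusted p = 1.17e-08). In smooth muscle medium it was 10.09 for Hist1h4f (SE 1.16, with 1 count in all over the Norm_SM libraries, and 8.83 by library size alone). It was -5.65 for Hist2h3c2 (SE 1.1, with 3 counts in all over the Hypo_SM libraries) and 1.27 for Hist1h1c (SE 0.13, adjusted p = 1.24e-08). The last was -0.07 (adjusted p = 0.664) by library size alone.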

How the results depend on the processing

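DESeq2 moved no count of members called by over 1.5 times. In 1 fit over all libraries, which tests more members, those called lower numbered 8 in Norm_Chondr, 13 in Norm_Osteo, 17 in Norm_SM, 3 in Hypo_Chondr, 4 in Hypo_Osteo and 2 in Hypo_SM against the proliferating group, and 1 in Hypo_Prolif against Norm_Prolif. In that fit 7 were higher in Hypo_Osteo against Norm_Osteo, and the chondrocyte interaction had 5 higher and 2 lower. By library size alone 8 were lower in Norm_Chondr, 2 in Hypo_Chondr and 3 in Hypo_Osteo, and 2 were higher in Hypo_Osteo against Norm_Osteo. With limma-voom 2 were lower in Hypo_Osteo. Without the filter 14 were lower in Norm_Osteo, 17 in Norm_SM, 2 in Hypo_Chondr, 5 in Hypo_Osteo and 2 in the chondrocyte interaction. The log2 values that reversed, both by library size alone, were Hist1h2al in Hypo_SM against Norm_SM (-0.05) and the smooth muscle interaction of Hist1h1c (-0.07). Among the changes of named members, 15 lost their call by library size alone, 13 in 1 fit over all libraries, 11 without the filter, 14 with the replicate block and 4 each with DESeq2 and limma-voom, with no change of sign. The cause of these moves was not tested, beside the larger number of genes tested in 2 of the settings.

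Leaving out 1 library at a time, the members called lower ranged from 4 to 8 in Norm_Chondr, 1 to 3 in Hypo_Chondr and in Hypo_Osteo, 1 to 3 in Hypo_Prolif against Norm_Prolif, 0 to 1 in Hypo_Chondr against Norm_Chondr and 2 to 4 in the chondrocyte interaction. Those called higher ranged from 1 to 3 in Hypo_Osteo against Norm_Osteo and 4 to 7 in the osteoblast interaction. The labels do not say whether replicate numbers pair the libraries. Correlations of same-numbered libraries ran from -0.0802 to 0.118, and with so few libraries per group they cannot exclude pairing. With the replicate block 2 of 26 counts moved, to 2 higher in Hypo_Osteo against Norm_Osteo and 2 lower in the chondrocyte interaction. The settings for the S phase, processing and replacement lists, library size alone and without Norm_Osteo replicate 4, were chosen after seeing the data. Levels under about 0.1 CPM rest on a few counts per library.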
